A study of Mus musculus with 3 samples.

Results

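Cadherins are calcium-dependent adhesion proteins of the cell surface, and protocadherins are the largest group of their relatives. The genes described here were all features of the deposited matrices whose symbol began with Cdh followed by a digit, or with Pcdh. They numbered 92, of 32285 features in all, and 86 of them had at least 50 counts over the 3 libraries in the nuclei kept, as did 17597 features of any name. The 86 comprised 4 type I cadherins, 13 type II cadherins, 2 other cadherins, 5 delta-1, 5 delta-2 and 1 other nonclustered protocadherin, and 14 alpha, 21 beta and 21 gamma clustered protocadherins. The 6 below the minimum were Cdh3 with 28 counts, Cdh26 with 10, Pcdh12 with 5, Cdh17 with 4, Pcdhb1 with 3 and Cdh16 with 2. The lowest value inside the minimum was 106 counts, and the highest outside it was 28, that of Cdh3.

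Nuclei came from the prefrontal cortex of male mice aged 6 to 8 weeks and were profiled by droplet single-nucleus RNA-seq that counts the 3′ ends of transcripts. There were 3 libraries, one for each genotype. C57BL/6J was wild-type C57BL/6 and pooled 5 mice. Nav1 KO carried a homozygous CRISPR deletion in an exon of Nav1, which encodes neuron navigator 1, on a C57BL/6 background, and pooled 4 mice. BTBR was the inbred strain BTBR T+ Itpr3tf/J, and the sources used here do not say how many mice were pooled. None of the groups received a drug or other treatment according to the labels. The labels call the cells neurons, but NeuN-positive and NeuN-negative nuclei had both been sorted, and glial, vascular and meningeal classes were present. Nuclei with markers of the olfactory bulb and of striatal medium spiny neurons were present as well.

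With a single library per genotype, no difference between genotypes could be tested. Every level below is in CPM, the counts of a gene summed over the nuclei of a class in a library and scaled to a class total of 1000000 counts. The 95% intervals in brackets are exact Poisson intervals for levels, exact binomial intervals for ratios of 2 libraries and Clopper-Pearson intervals for shares of nuclei. They cover counting error only, not the spread between mice. Where 3 values stand in a row, they are those of C57BL/6J, Nav1 KO and BTBR, in that order. Counts from 3′ ends depend on each gene's own transcript ends, so levels are compared between classes and libraries and not between genes.

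After the filter on nuclei, 14630, 14056 and 14778 nuclei remained, with 38704723, 50965774 and 48948184 counts and a median of 2074, 2754 and 2510.5 counts per nucleus. Of the kept barcodes, 66 were shared by C57BL/6J and Nav1 KO, 59 by C57BL/6J and BTBR and 55 by Nav1 KO and BTBR. Nav1 stood at 345, 264 and 146 CPM over whole libraries, and 3′ counts outside the deleted part do not check the knockout. The makeup of the libraries differed. Olfactory bulb mitral or tufted cells numbered 32, 550 and 276 nuclei, olfactory bulb interneurons 109, 804 and 682, olfactory ensheathing glia 28, 419 and 108, and medium spiny neurons of the striatum 918, 276 and 475. Results are therefore given within classes. The 20600 cortical excitatory nuclei and 2968 cortical inhibitory nuclei, each a pool of clusters, carry the comparisons of genotypes. The excitatory pool held the named layer classes and unnamed clusters of 465, 338 and 1299, of 164, 160 and 478 and of 192, 52 and 96 nuclei. The inhibitory pool held the Sst class, with 646, 542 and 674 nuclei, and the Vip class, with 393, 175 and 538. The makeup of these pools thus also differed between libraries, and pooled ratios carry this limit. The olfactory ensheathing glia and oligodendrocyte precursor classes had 23.1% and 21.7% of nuclei with high doublet scores.

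Classical cadherins bind their own kind on the neighbouring cell through their outermost repeat and hold catenins, and through them actin, on the inside. Nonclustered protocadherins of the delta groups also adhere, more weakly, and signal through actin regulators. The clustered protocadherins lie in 3 adjacent gene arrays, and each neuron uses a different combination of them, by which its own processes recognise one another. In cortex, cadherins and protocadherins are known for combinations that differ between layers, regions and classes of neuron.

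Counts were concentrated in a few genes. The 10 with the most counts in all nuclei were Pcdh9 (53898), Pcdh10 (44402), Pcdh7 (43355), Cdh10 (30566), Pcdh17 (24093), Cdh2 (21212), Cdh11 (15336), Pcdh15 (14293), Cdh13 (11280) and Cdh8 (9517), out of 391641 counts of all 92 features. Delta-1 protocadherins held 117390 counts, type II cadherins 88532, delta-2 protocadherins 75499 and type I cadherins 25557. The alpha, beta and gamma arrays held 9925, 25595 and 23266.

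**Figure D1:**
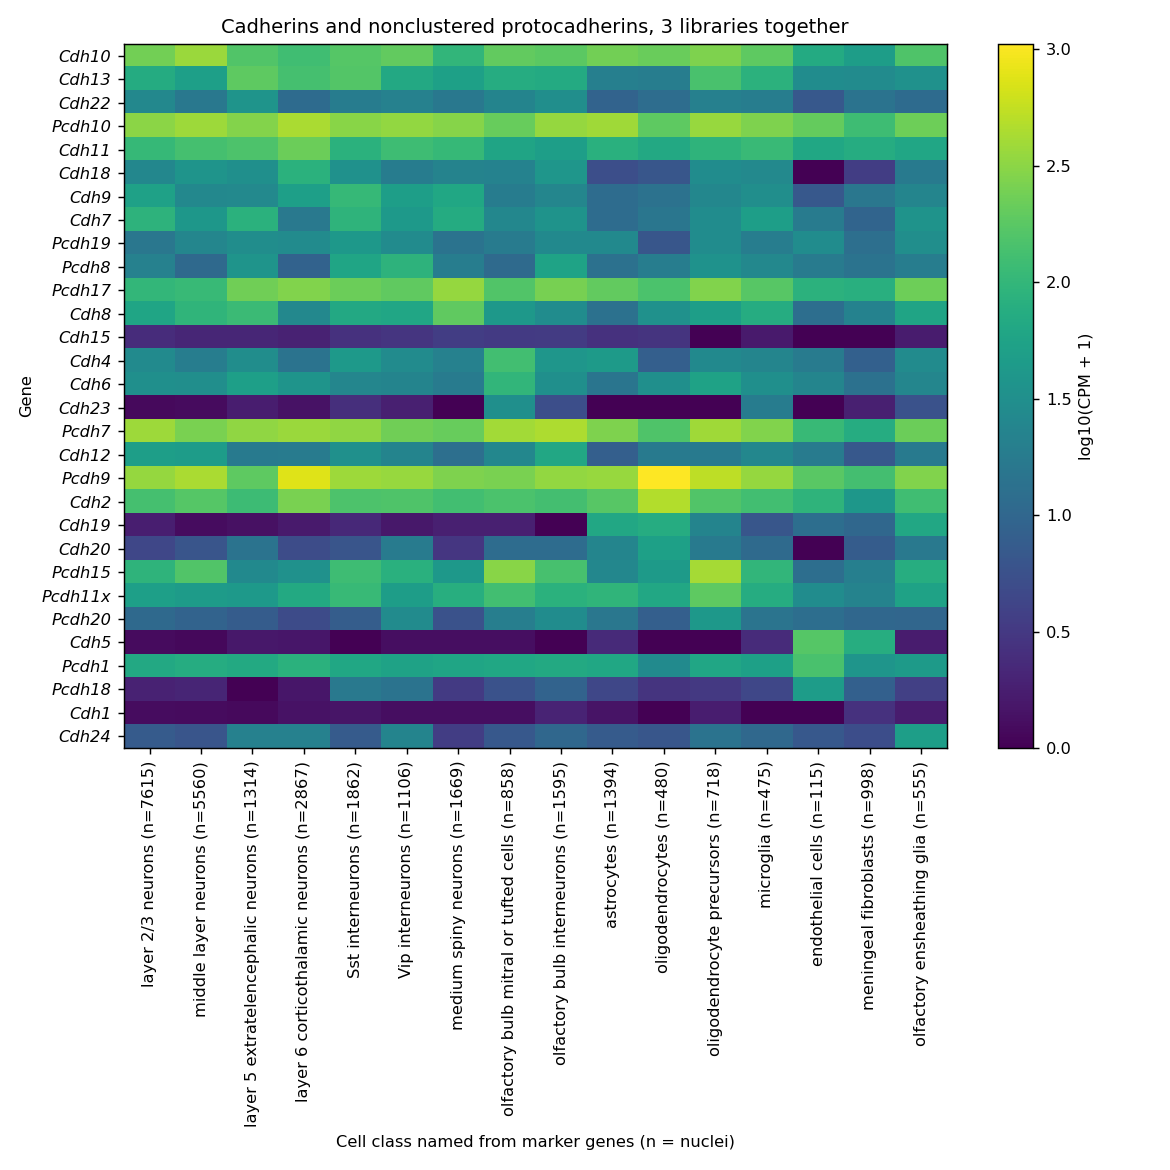
Level of each cadherin and nonclustered protocadherin (rows) in each cell class (columns), as log10 of CPM + 1 with the 3 libraries summed. Brighter cells are higher. Cdh5 is bright in endothelial cells and fibroblasts, Cdh19 in glia, and Pcdh9 is high in nearly every column.

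Among type I cadherins, Cdh2 encodes N-cadherin, the classical cadherin of neurons. It lies at chr18:16588877-16809246 on the minus strand (GRCm38). In layer 6 corticothalamic neurons Cdh2 stood at 310, 258 and 195 CPM, the highest of the neuronal classes in each library. Meningeal fibroblasts had 32.5, 47.4 and 28.1 CPM. Cdh4, R-cadherin (chr2:179442431-179899373), was highest in olfactory bulb mitral or tufted cells, the output neurons of the bulb, at 124, 127 and 123 CPM. Cdh1, E-cadherin of epithelia, had 143 counts in all. Its highest level was in an unnamed cluster of 84 nuclei, at 202, 159 and 212 CPM, against at most 1.66 CPM in any named class with the libraries summed.

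Several type II cadherins marked non-neuronal classes. Cdh5, VE-cadherin, is the cadherin of endothelial junctions (chr8:104101625-104144511). It had 2, 9 and 18 counts in endothelial cells, or 63.5, 97.9 and 349 CPM in 22, 58 and 35 nuclei, and 12, 41 and 38 counts in meningeal fibroblasts, or 65.1, 69.4 and 89.1 CPM. No other named class exceeded 1.35 CPM with the libraries summed. Among endothelial markers, fibroblasts had 0, 10 and 0 counts of Cldn5, 1, 2 and 4 of Pecam1 and 19, 86 and 51 of Flt1. All 7 endothelial markers summed to 212, 335 and 148 CPM there, with 3, 0 and 2 of them at 0, and the part of endothelial RNA in the fibroblasts' Cdh5 was not tested. Cdh19 (chr1:110888326-110977584), known from glia of the neural crest, stood in oligodendrocytes at 76.6, 60.3 and 87.1 CPM and in astrocytes at 58.6, 78.4 and 47.5 CPM. In oligodendrocyte precursors Cdh19 stood at 13.3, 22.1 and 26.8 CPM and in olfactory ensheathing glia at 17.3, 77.3 and 14.9 CPM, while neuronal classes held at most 1.25 CPM. Oligodendrocytes were also highest in Cdh20, at 44.3, 48.2 and 65.3 CPM, with astrocytes at 18.04, 28.3 and 16.7 CPM. Cdh24 was highest in olfactory ensheathing glia, at 86.2, 46.2 and 52.0 CPM, which rest on 5, 52 and 14 counts.

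Other type II cadherins separated classes of neuron. Cdh8 (chr8:99024471-99416471) was highest in medium spiny neurons in C57BL/6J and Nav1 KO, at 231, 187 and 129 CPM, while layer 5 extratelencephalic neurons had 86.8, 112 and 141 CPM and layer 6 corticothalamic neurons 22.6, 22.1 and 29.5 CPM. In BTBR the intervals of the first 2 of these classes overlapped. Cdh9 was highest in Sst interneurons, at 75.5, 92.0 and 142 CPM. The cluster named for Sst, which stood in it at 2978, 2278 and 2325 CPM, also matched the Pvalb list at 4.48-fold, beside 5.99-fold for the Sst list, so its values can include nuclei of Pvalb interneurons, for which no class was named. Cdh10 was highest in middle layer neurons, at 391, 384 and 297 CPM, with layer 2/3 neurons at 246, 252 and 200 CPM, and layer 6 corticothalamic neurons had 156, 113 and 98.1 CPM. The layer 6 class led in Cdh11, with 258, 199 and 196 CPM, and in Cdh18, with 82.0, 91.2 and 80.7 CPM against 25.4, 21.6 and 26.2 CPM in layer 2/3. Cdh7 ran the other way, at 18.4, 20.2 and 7.81 CPM in layer 6 and 87.8, 101 and 71.4 CPM in layer 2/3. Cdh6 was highest in mitral or tufted cells at 74.1, 104 and 76.4 CPM. Most nuclei of the layer 2/3 class fell in one cluster for C57BL/6J and Nav1 KO and in another for BTBR.

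Cdh13, T-cadherin, lacks a cytoplasmic tail and is held in the membrane by a lipid anchor (chr8:118283733-119324921). It was highest in layer 5 extratelencephalic neurons, at 185, 190 and 176 CPM, and next in Sst interneurons, at 155, 160 and 172 CPM. The intervals of these 2 classes overlapped in each library. Layer 6 corticothalamic neurons had 143, 130 and 132 CPM of Cdh13, middle layer neurons 53.6, 52.6 and 39.2, and astrocytes 27.1, 18.2 and 16.7. Cdh23, a tip-link cadherin of hair cells, was highest in mitral or tufted cells, at 74.1, 26.7 and 35.6 CPM, with 14.7, 16.1 and 21.7 CPM in microglia, whose interval overlapped in Nav1 KO and BTBR. Cortical excitatory nuclei held at most 0.39 CPM of Cdh23.

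**Figure D2:**
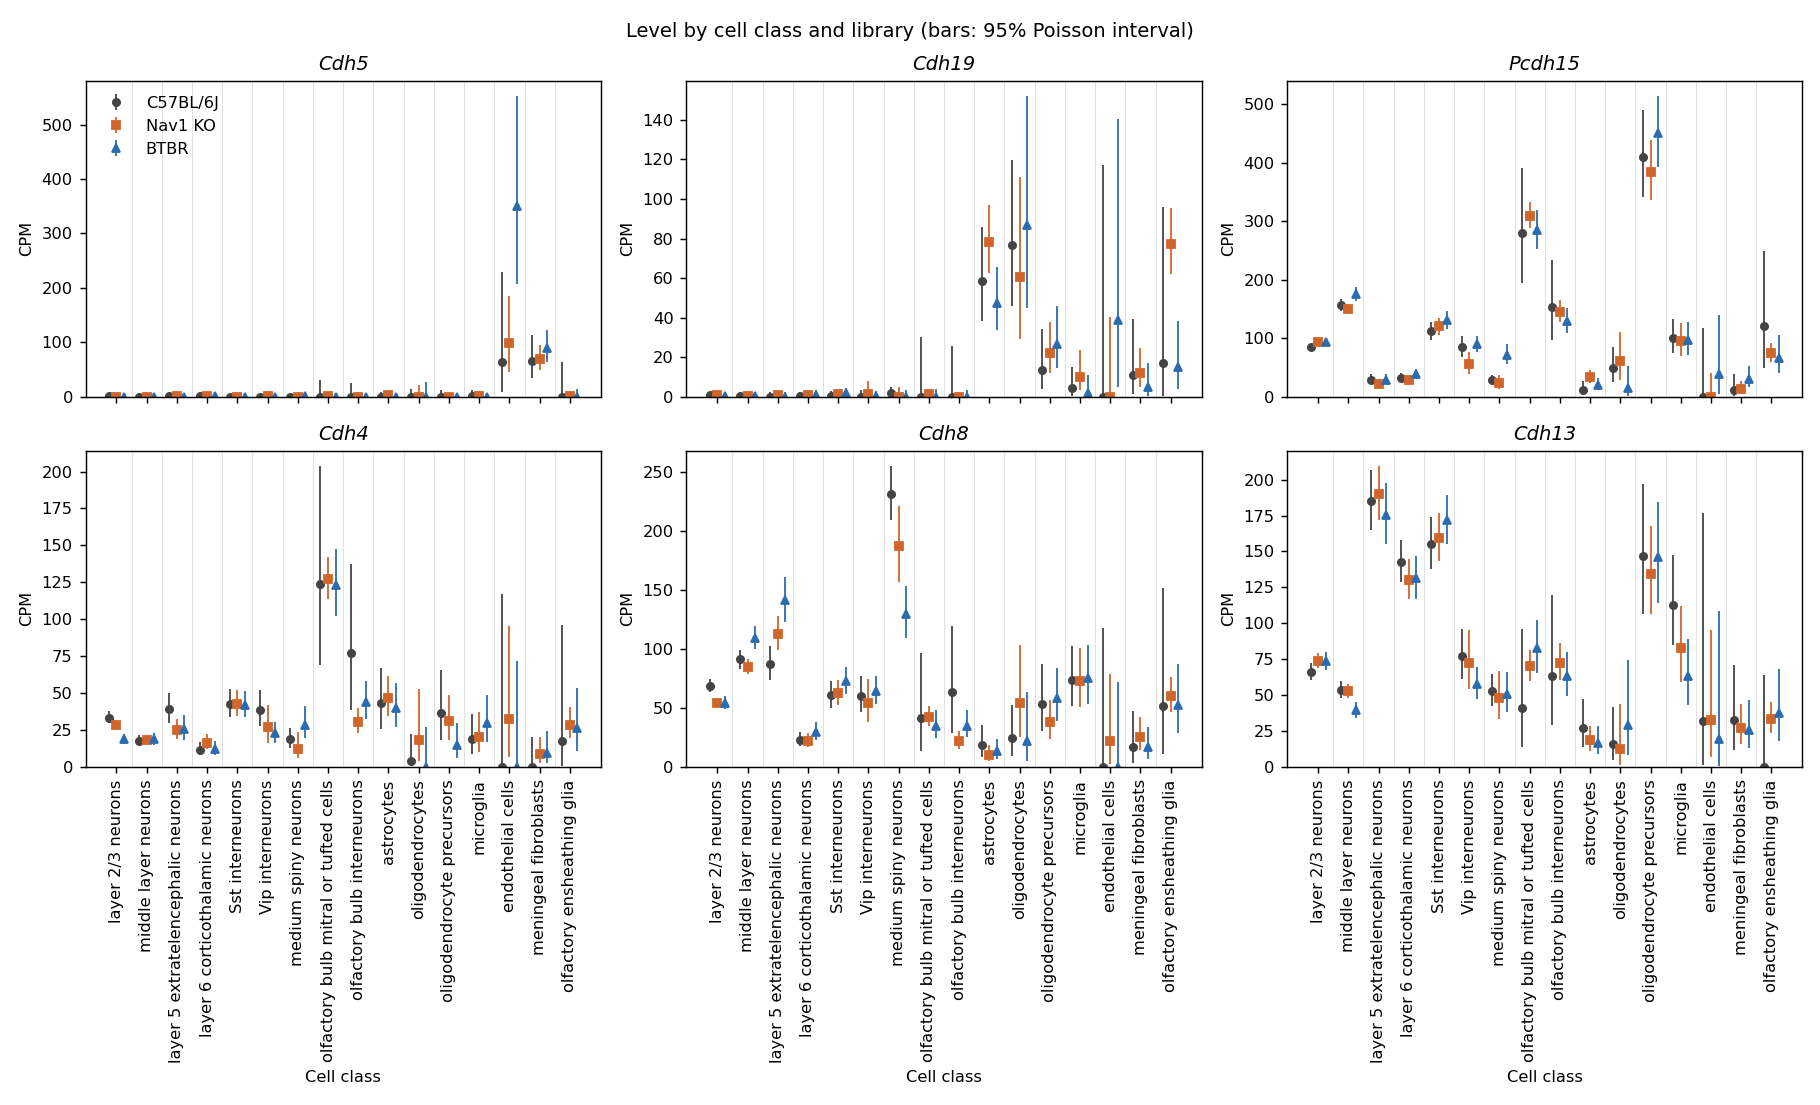
CPM of Cdh5, Cdh19, Pcdh15, Cdh4, Cdh8 and Cdh13 in 16 cell classes, one panel per gene and one symbol per library, with exact 95% Poisson intervals. Pcdh15 stands above its other classes in oligodendrocyte precursors (410, 384 and 450 CPM) in all 3 libraries, whereas Cdh8 in medium spiny neurons runs from 231 down to 129 CPM.

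The delta-1 protocadherins, which carry a cytoplasmic motif that binds protein phosphatase 1, were broadly present. Pcdh9 was highest in oligodendrocytes, at 1233, 953 and 842 CPM, then in layer 6 corticothalamic neurons, at 767, 738 and 770 CPM, and stood at 103, 124 and 150 CPM in meningeal fibroblasts. The intervals of its first 2 classes overlapped in BTBR but not in the others. Pcdh7 was highest in olfactory bulb interneurons, at 447, 442 and 452 CPM, with 408, 390 and 319 CPM in layer 2/3, which its interval met in C57BL/6J. Pcdh11x, the X-linked member (chrX:120290259-120910619), was highest in oligodendrocyte precursors, at 133, 177 and 235 CPM, with 107, 124 and 134 CPM in mitral or tufted cells and 88.6, 104 and 128 CPM in Sst interneurons. The same precursors led in Pcdh20, at 36.7, 42.5 and 37.1 CPM, against 4.21, 3.49 and 3.91 CPM in layer 6 corticothalamic neurons, though its interval overlapped that of the next class in each library. Pcdh1 stood at 67.8, 73.1 and 76.6 CPM in cortical excitatory nuclei. With the libraries summed, it was highest in endothelial cells, at 143 CPM, and next in layer 6 corticothalamic neurons, at 85.0 CPM. Oligodendrocytes were lowest, at 27.2 CPM.

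Among delta-2 protocadherins, which bind the WAVE actin-regulating complex, Pcdh10 was highest in layer 6 corticothalamic neurons, at 463, 385 and 457 CPM, with 396, 354 and 396 CPM in middle layer neurons and an interval that overlapped that of astrocytes. Pcdh17 was highest in medium spiny neurons, at 357, 370 and 319 CPM, beside 259, 291 and 290 CPM in layer 6 corticothalamic neurons. Pcdh8, whose product takes N-cadherin off the synapse after activity, was highest in Vip interneurons, at 81.2, 85.1 and 92.7 CPM. Pcdh18 was an interneuron gene within cortex, with 15.7, 11.7 and 19.2 CPM in Sst interneurons, 16.2, 15.6 and 10.4 CPM in Vip interneurons and at most 1.18 CPM in excitatory nuclei of any library. In endothelial cells it stood at 63.5, 43.5 and 38.8 CPM, which rest on 2, 4 and 2 counts. Pcdh19, mutated in a female-limited epilepsy (chrX:133582860-133688987), was highest in Sst interneurons, at 37.2, 37.4 and 45.4 CPM, with other classes inside its interval. Pcdh15, the tip-link partner of Cdh23 (chr10:73099342-74649737), was highest in oligodendrocyte precursors, at 410, 384 and 450 CPM, and mitral or tufted cells were next, at 280, 309 and 284 CPM. Middle layer neurons had 156, 149 and 175 CPM of Pcdh15 and layer 5 extratelencephalic neurons 29.1, 22.0 and 28.8 CPM.

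Depth per nucleus differed between classes, so shares of nuclei with a count were also taken after each nucleus was thinned to 1000 counts. Pcdh15 was then seen in 39.5% of oligodendrocyte precursors (48.9% before thinning), Pcdh9 in 63.3% of oligodendrocytes (61.3%), Cdh13 in 19.5% of layer 5 extratelencephalic neurons (44.6%) and Cdh8 in 17.9% of medium spiny neurons (29.7%). Cdh4 was seen in 13.5% of mitral or tufted cells (29.5%), and Cdh19 in 5.75% of astrocytes (9.90%). Thinning to this depth left out 2394, 1249 and 2096 nuclei with fewer counts. Of the 480 oligodendrocytes it kept 207 (80, 78 and 49 by library), so the thinned Pcdh9 share describes the deeper nuclei of that class.

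Members that marked a class were those 2-fold or more above all other nuclei, with 5 CPM added on both sides and at least 20 counts, with the 3 libraries summed. No member did so in layer 2/3 or middle layer neurons, of 82 and 78 tested, where 0.206% and 0.255% of all genes did. In layer 5 extratelencephalic neurons 1 of 52 did (0.89% of genes), Cdh13, and in layer 6 corticothalamic neurons 3 of 65 (1.12%), Cdh18, Pcdh9 and Cdh11. Sst interneurons had 4 of 60 (1.8%), Pcdh18, Cdh9, Pcdh8 and Cdh13, and Vip interneurons 3 of 49 (1.74%), Pcdh8, Pcdh18 and Pcdh20. Medium spiny neurons had 2 of 52 (3.61%), Cdh8 and Pcdh17, mitral or tufted cells 4 of 51 (3.52%), Cdh23, Cdh4, Pcdh15 and Cdh6, and bulb interneurons 2 of 54 (2.75%), Pcdh20 and Pcdh8.

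In glia the members past 2-fold were Cdh19, Pcdhgc3 and Cdh20 of 36 in astrocytes (11.6% of genes), Cdh19, Cdh20, Cdh2 and Pcdh9 of 12 in oligodendrocytes (15.8%) and Pcdh15, Pcdhb9, Pcdh20, Pcdh11x and Cdh19 of 34 in precursors (6.01%). They were Cdh23 of 34 in microglia (4.28%) and Cdh19 and Cdh24 of 34 in ensheathing glia (6.83%). Endothelial cells had Cdh5 and Pcdh1 of 4 (45.7%), and fibroblasts Cdh5, Pcdhga7, Pcdhgc4 and Pcdhga10 of 29 (14.7%). Many did not pass in every library by itself. All 3 libraries passed for 1 of 1 in layer 5 extratelencephalic neurons, 1 of 3 in layer 6 corticothalamic neurons, 2 of 4 in Sst interneurons, 1 of 3 in Vip interneurons, 0 of 2 in medium spiny neurons and bulb interneurons and 4 of 4 in mitral or tufted cells. They did so for 2 of 3 in astrocytes, 3 of 4 in oligodendrocytes, 4 of 5 in precursors, 1 of 1 in microglia, 2 of 2 in ensheathing glia, 1 of 2 in endothelial cells and 2 of 4 in fibroblasts.

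The class with the highest CPM was the same in all 3 libraries for 23 of 79 members, or 29.1%, against 28.7% of 14565 genes, among 13 classes. The share was therefore near that of genes in general. By kind, it was 17 of 27 cadherins and nonclustered protocadherins and 6 of 52 clustered protocadherins, which have fewer counts each.

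Cdh2 in oligodendrocytes differed most between libraries, and was singled out after its values were seen. Oligodendrocytes had 183, 76 and 3 counts of Cdh2, or 737, 458 and 21.8 CPM. A Cdh2 count was found in 107 of 233 nuclei of C57BL/6J (45.9%, 95% interval 39.4 to 52.6), in 56 of 126 of Nav1 KO (44.4%, 35.6 to 53.6) and in 3 of 121 of BTBR (2.48%, 0.514 to 7.07). The BTBR nuclei thus stood apart from both other libraries, whose shares overlapped. The BTBR over C57BL/6J ratio was 0.0295, with an interval of 0.006 to 0.088, the lowest of 1013 genes tested in the class, 22.4% of which passed 1.5-fold and 10.8% of which did so downwards. Nav1 KO over C57BL/6J was 0.622.

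Depth and a class marker of these nuclei were near one another. The median was 885, 1132 and 890 counts per oligodendrocyte, and after thinning to 500 counts the shares of nuclei with Cdh2 were 32.2%, 20.6% and 0%. Mag, a myelin gene that marks the class, stood at 1426, 1689 and 1487 CPM. The largest number of Cdh2 counts in a single nucleus was 12, 4 and 1, so the C57BL/6J value did not rest on 1 nucleus.

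In the neighbouring glial classes the Cdh2 ratio lay near 1. Oligodendrocyte precursors had 160, 146 and 171 CPM, with a BTBR over C57BL/6J ratio of 1.07 (0.741 to 1.56), and astrocytes 149, 189 and 161 CPM, with a ratio of 1.08 (0.795 to 1.48). Cdh2 counts were found in 20.2%, 24.3% and 25.9% of precursors and in 17.5%, 27.1% and 22.3% of astrocytes. Meningeal fibroblasts, the other class with a low level, gave 2.71%, 5.12% and 2.997%, values that all lie above the 2.48% of BTBR oligodendrocytes and inside its interval. Free RNA was not measured, and its part in these shares was not tested.

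The size of the Cdh2 ratio depended on which nuclei were called oligodendrocytes. In 3 unnamed clusters whose best marker list was that of oligodendrocytes, Cdh2 differed less between libraries. One had 263, 229 and 81.5 CPM of Cdh2, with a count in 55.3%, 51.9% and 22.5% of nuclei. Another had 239, 204 and 134 CPM, with a count in 59.7%, 52.7% and 43.1%, and the smallest, of 8, 18 and 20 nuclei, had 245, 216 and 128 CPM. With each library clustered by itself the class held 506, 337 and 248 nuclei, Cdh2 stood at 331, 259 and 71.3 CPM and the ratio was 0.216. With the clustering at a lower resolution it held 447, 260 and 250 nuclei at 365, 280 and 67.6 CPM, and the ratio was 0.185. Cdh2 was lower in BTBR than in the other libraries in each of these clusters and classes. The cause of the difference was not tested.

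**Figure D3:**
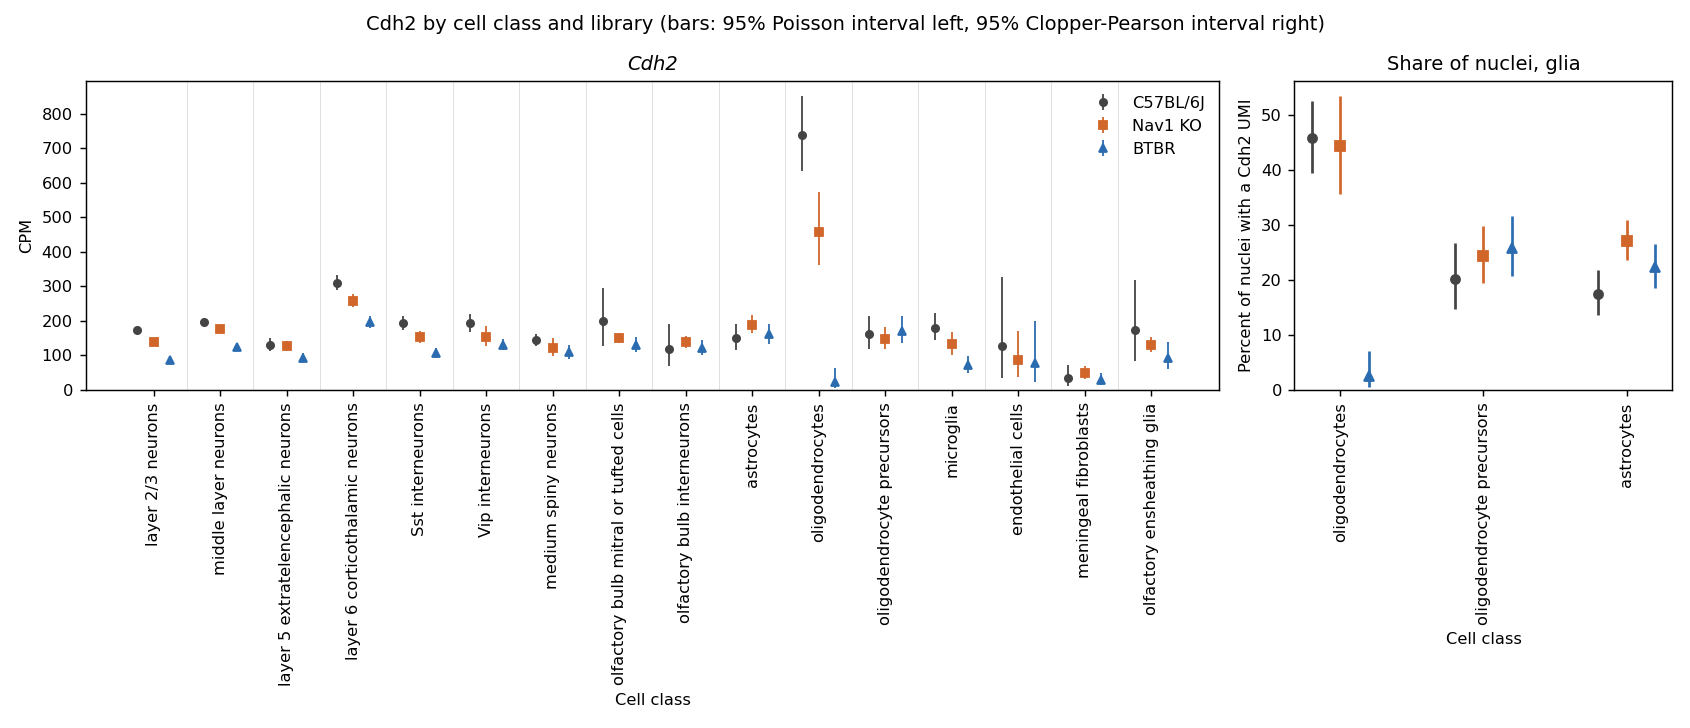
Left, CPM of Cdh2 by cell class with exact 95% Poisson intervals, one symbol per library. Right, percent of nuclei with a Cdh2 count in oligodendrocytes, oligodendrocyte precursors and astrocytes with 95% Clopper-Pearson intervals, where BTBR oligodendrocytes lie at 2.48% beside 45.9% and 44.4%.

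Cortical neurons of BTBR also had less Cdh2, with ratios nearer 1. Cortical excitatory nuclei had 200, 166 and 111 CPM, a BTBR over C57BL/6J ratio of 0.555 (0.528 to 0.584), and inhibitory nuclei 193, 153 and 116 CPM, a ratio of 0.601 (0.531 to 0.680). Nav1 KO lay between, with ratios to C57BL/6J of 0.829 and 0.791. The BTBR over C57BL/6J ratio of Cdh2 was below 1 in 10 of 13 classes with enough counts and in 9 of them with the whole interval below 1. It was 0.493 in layer 2/3, 0.642 in middle layer, 0.630 in layer 6 corticothalamic and 0.696 in layer 5 extratelencephalic neurons, 0.544 in Sst and 0.674 in Vip interneurons, 0.757 in medium spiny neurons and 0.654 (0.421 to 1.06) in mitral or tufted cells. Among non-neuronal classes it was 0.394 in microglia. Olfactory bulb interneurons were the neuronal exception, with 119 CPM in C57BL/6J and 121 CPM in BTBR, a ratio of 1.02 (0.615 to 1.81).

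Between Nav1 KO and C57BL/6J, the comparison that bears on the loss of Nav1, no cadherin or nonclustered protocadherin passed 1.5-fold in the cortical excitatory nuclei as a pooled class. Of all 14559 genes tested there 11.5% passed, 4.37% higher and 7.11% lower, and of the 78 members 5 did, each of them a clustered protocadherin. Single alpha and gamma genes are uncertain, because their last exons are shared within the array. Pcdhga1 was higher, with a ratio of 1.56 (0.964 to 2.59) on 27 and 52 counts. Pcdha1 at 0.528 (0.309 to 0.886), Pcdha7 at 0.563 (0.353 to 0.891), Pcdhgb5 at 0.650 (0.513 to 0.822) and Pcdhb22 at 0.66 were lower. The median member stood at 0.914 and the median gene at 0.933, and 71.8% of members were below 1, as were 61.6% of genes.

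Members with many counts moved little between Nav1 KO and C57BL/6J. Excitatory ratios were 1.00 for Cdh10, 0.834 for Pcdh9, 0.829 for Pcdh10 and 0.992 for Pcdh8. Pcdh11x was higher without passing 1.5-fold, at 39.3 and 51.8 CPM (ratio 1.32), and so was Cdh20, at 2.99 and 4.35 CPM (1.45, 1.06 to 2.02). Cdh24 was lower, at 12.2 and 8.23 CPM (0.677). Within single layers some passed, 1 of 57 members in layer 2/3 (11.2% of genes) and 5 of 54 in middle layer neurons (11.8%). The numbers were 5 of 30 in layer 5 extratelencephalic neurons (11.9%) and 4 of 34 in layer 6 corticothalamic neurons (12.1%). Those named here were picked from these. Cdh20 stood at 2.10 and 4.82 CPM in middle layer neurons, a ratio of 2.30 (1.18 to 4.82) on 12 and 39 counts. In layer 5 extratelencephalic neurons Cdh4 was at 0.641 (0.436 to 0.938), Cdh24 at 0.648 (0.408 to 1.02) and Cdh18 at 1.54 (1.02 to 2.33), and in layer 6 corticothalamic neurons Cdh24 was at 0.648 (0.442 to 0.944). In inhibitory nuclei 3 of 46 members passed, beside 10.6% of 10301 genes. Pcdhgb4 had a ratio of 2.02 (1.10 to 3.86) on 17 and 34 counts, Pcdhb7 0.524 (0.320 to 0.842) and Pcdha4 0.601 (0.338 to 1.05). The highest and lowest ratios after these were those of Pcdhga9 at 1.44, Pcdh11x at 1.36 (1.13 to 1.64) and Pcdhb16 at 0.693.

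**Figure D4:**
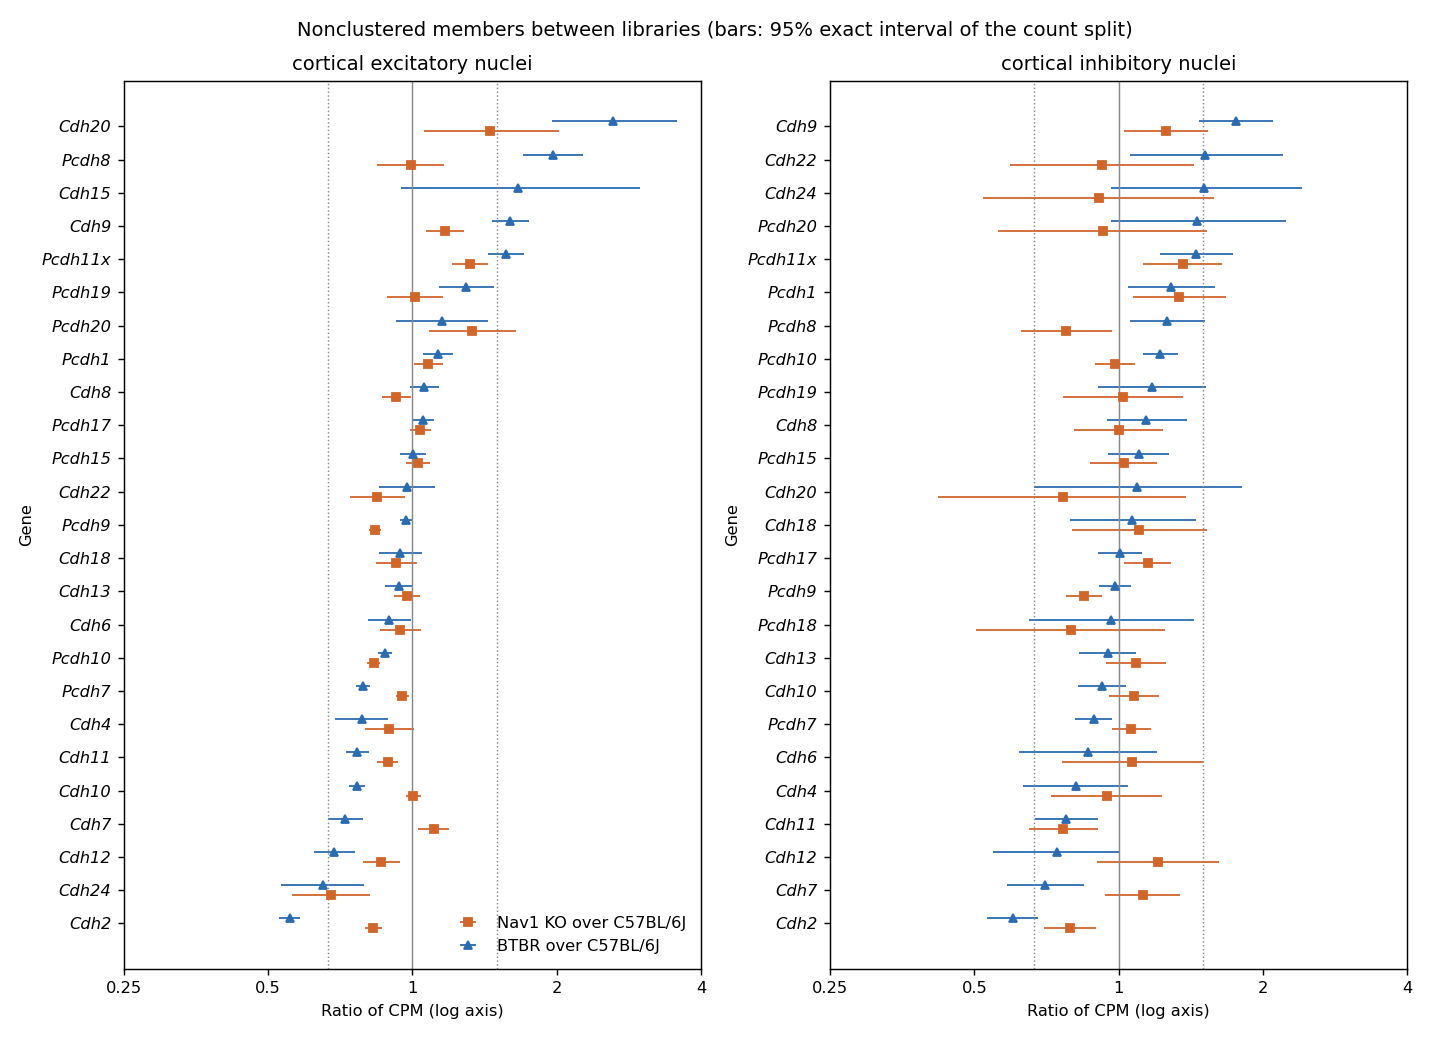
Ratio to C57BL/6J of each cadherin and nonclustered protocadherin in cortical excitatory nuclei (left) and inhibitory nuclei (right) on a log axis, for Nav1 KO (squares) and BTBR (triangles), with exact 95% intervals and dotted lines at 1.5-fold. In excitatory nuclei no square lies outside the dotted lines, while Cdh20 (2.62), Pcdh8 (1.96) and Cdh2 (0.555) of BTBR do.

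Between BTBR and C57BL/6J, a comparison of inbred strains, 14 of 76 members passed 1.5-fold in excitatory nuclei, beside 17.6% of 14450 genes. Of these members 8 were higher and 6 lower, and 9.05% and 8.57% of all genes were. The BTBR and Nav1 KO comparisons share the C57BL/6J library. The median member stood at 0.929 and the median gene at 1.01, and 65.8% of members were below 1, as were 48.0% of genes.

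The cadherins and nonclustered protocadherins higher in BTBR excitatory nuclei were Cdh20, Pcdh8, Cdh15, Cdh9 and Pcdh11x. Cdh20 stood at 2.99, 4.35 and 7.85 CPM, a BTBR over C57BL/6J ratio of 2.62 (1.95 to 3.57) on 62 and 173 counts. Pcdh8 stood at 13.8, 13.6 and 27.0 CPM, a ratio of 1.96 (1.70 to 2.27), and the 2 libraries on the C57BL/6 background lay together. With equal weight for each excitatory cluster the Pcdh8 ratio was 1.46, short of 1.5-fold. Cdh9 stood at 37.7, 44.1 and 60.4 CPM (1.60, 1.46 to 1.75) and Pcdh11x at 39.3, 51.8 and 61.6 CPM (1.57, 1.44 to 1.71), with Nav1 KO between. Cdh15, M-cadherin of muscle, rested on 21 and 37 counts (1.66, 0.945 to 2.98). Fos and Arc, genes induced by neuronal activity, stood in the same nuclei at 9.36, 8.78 and 32.3 CPM and at 26.8, 36.6 and 74.6 CPM, and their part in the Pcdh8 difference was not tested.

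Pcdh8 and Cdh9 were higher in BTBR than in C57BL/6J in each class with enough counts. For Pcdh8 the ratio was above 1 in 7 of 7 classes, from 1.14 in Vip interneurons to 2.57 in layer 2/3. Layer 2/3 neurons had 13.8, 15.2 and 35.4 CPM of Pcdh8 and olfactory bulb interneurons 34.9, 36.4 and 85.7 CPM. For Cdh9 it was above 1 in 7 of 7, from 1.32 in medium spiny neurons to 1.88 in Sst interneurons. Pcdh11x was above 1 in 11 of 12, from 0.985 to 2.17.

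Among cadherins and nonclustered protocadherins higher in BTBR excitatory nuclei, Pcdh8, Cdh9, Cdh20 and Cdh15 had an entry in the RefSeq promoter table (GRCm38.p6). The windows around the starts of Pcdh8, Cdh9 and Cdh20 are printed from 250 bases before to 50 bases after the start given in that table. That of Cdh15 is not printed. Pcdh8 itself lies at chr14:79766775-79771312 on the minus strand, Cdh9 at chr15:16728756-16857094 and Cdh20 at chr1:104768529-104995481 on the plus strand. The printed windows are chr14:79771263-79771562 (minus strand), chr15:16728665-16728964 (plus) and chr1:104768270-104768569 (plus). For Cdh9 the gene position and the promoter table place the start differently. Its gene position begins at 16728756, ahead of the marked CCAAT box, so that box lies inside the gene as positioned here. Capitals mark the CCAAT box, CCAAT or ATTGG by strand, and the TATA motif, TATAAA or TTTATA by strand, which may overlap one another or themselves and were chosen after the sequences were seen.
Pcdh8: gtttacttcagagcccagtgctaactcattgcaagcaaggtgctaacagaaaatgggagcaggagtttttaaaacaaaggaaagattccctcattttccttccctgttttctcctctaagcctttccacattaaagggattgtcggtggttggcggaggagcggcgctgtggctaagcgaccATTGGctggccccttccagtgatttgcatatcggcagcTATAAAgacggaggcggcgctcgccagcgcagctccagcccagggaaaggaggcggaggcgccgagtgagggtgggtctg
Cdh9: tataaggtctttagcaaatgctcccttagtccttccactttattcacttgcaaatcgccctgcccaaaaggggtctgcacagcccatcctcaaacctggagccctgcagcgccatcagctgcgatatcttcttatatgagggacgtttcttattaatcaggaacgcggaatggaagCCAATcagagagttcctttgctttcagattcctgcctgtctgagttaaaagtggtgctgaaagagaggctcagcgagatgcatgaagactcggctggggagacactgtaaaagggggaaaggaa
Cdh20: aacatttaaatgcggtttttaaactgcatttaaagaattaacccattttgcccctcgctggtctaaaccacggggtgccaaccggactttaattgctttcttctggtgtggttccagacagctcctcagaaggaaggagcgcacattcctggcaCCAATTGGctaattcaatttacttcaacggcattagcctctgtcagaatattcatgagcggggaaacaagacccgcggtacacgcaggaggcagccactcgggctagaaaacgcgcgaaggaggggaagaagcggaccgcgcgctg

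Of these windows, that of Pcdh8 held 1 CCAAT box and 1 TATAAA, that of Cdh9 1 CCAAT box, and that of Cdh20 2 CCAAT boxes on opposite strands that overlap. GGGCGG was in none of these 3 windows on either strand, while the Cdh15 window, which is not printed, held 3. Among all 32851 windows of the table, 37.41% held a CCAAT box, 13.62% TATAAA and 35.66% GGGCGG. The 24 windows of members with at least 50 counts, from 21 genes, held them in 16, 2 and 9 cases. Windows on the chromosome that holds Cdh2 were left out of these 24. GC content was 54.33%, 48.67% and 50.67% in Pcdh8, Cdh9 and Cdh20, beside a median of 52.67% over all windows. A match describes these letters of the reference strain and says nothing of a factor or of the BTBR sequence.

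Lower in BTBR excitatory nuclei were Cdh2, Cdh24, at 12.2, 8.23 and 7.89 CPM (BTBR over C57BL/6J 0.649, 0.532 to 0.791), and 4 clustered protocadherins, of which Pcdha7 was at 0.499 (0.298 to 0.819) and Pcdha1 at 0.541 (0.309 to 0.925). Several abundant type II cadherins were lower without passing 1.5-fold. Cdh11 stood at 143, 127 and 110 CPM (0.767, 0.727 to 0.810), and it was below 1 in 11 of 12 classes, in 10 of them with the whole interval below 1. Cdh10 had the same excitatory ratio of 0.767 (0.737 to 0.797) and was below 1 in 12 of 14 classes, with medium spiny neurons at 1.86. Pcdh7 was at 0.788 and Cdh12 at 0.687, while Pcdh9 at 0.969, Cdh8 at 1.06 and Pcdh10 at 0.877 lay nearer 1.

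In BTBR inhibitory nuclei 6 of 46 members passed, beside 13.9% of 10911 genes. Cdh9 stood at 61.3, 77.0 and 107 CPM, a ratio of 1.75 (1.47 to 2.10). Cdh22 was at 1.51 (1.06 to 2.20) and Cdh24 also at 1.51 (0.962 to 2.41). Cdh2, Pcdhga6 at 0.629 (0.388 to 1.01) and Pcdhb7 at 0.638 (0.424 to 0.960) were lower. Pcdh8 stood at 66.0, 51.3 and 83.4 CPM in these nuclei, so the highest of the 3 was again BTBR. With the libraries summed, Pcdh8 was higher in Vip than in Sst interneurons, at 87.8 and 58.3 CPM. The pool held 393, 175 and 538 Vip nuclei beside 646, 542 and 674 Sst nuclei, and within Vip interneurons the BTBR over C57BL/6J ratio was 1.14. The pooled order therefore also carries the differing share of Vip nuclei. Set against Nav1 KO, BTBR had 5 of 78 members past 1.5-fold in excitatory nuclei (12.2% of genes) and 10 of 48 in inhibitory nuclei (10.5%). Excitatory BTBR over Nav1 KO ratios were 1.98 for Pcdh8, 1.81 for Cdh20, 1.37 for Cdh9 and 0.669 for Cdh2.

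Clustered protocadherins of the alpha and gamma arrays splice many variable first exons to shared last exons. In the annotation, the last 500 exonic bases of all 14 alpha and 21 gamma genes lie wholly within another gene, so 3′ counts of a single alpha or gamma gene are uncertain. Of the 22 beta genes 21 share none of these bases, the exception being Pcdhb21 with 91%. The arrays are therefore described below mainly as sums, and single alpha and gamma values, here and above, carry this limit. How far the alpha and gamma sums hold the counts from these shared bases was not tested. The alpha genes with the most counts were Pcdha11 (2959), Pcdha5 (1671) and Pcdha4 (949), the beta genes Pcdhb17 (4111), Pcdhb14 (3399) and Pcdhb16 (2462), and the gamma genes Pcdhga12 (4967), Pcdhgc5 (2550) and Pcdhgc4 (2224). The symbol Pcdha11 is held by 2 gene identifiers, and the value is that of ENSMUSG00000102206.

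Counts of the alpha array were found in neurons and in the oligodendrocyte precursor and microglia classes and were low in astrocytes and fibroblasts. Its sum was 76.2, 71.3 and 74.5 CPM in cortical excitatory nuclei and 86.3, 83.1 and 85.1 CPM in inhibitory nuclei, close among the libraries. Astrocytes had 11.3, 21.9 and 12.8 CPM on 5, 24 and 10 counts, and meningeal fibroblasts 0, 16.9 and 14.1 CPM on 0, 10 and 6. Oligodendrocyte precursors, at 90.03, 73.1 and 107 CPM, and microglia, at 69.1, 66.5 and 78.7 CPM, stood beside the neurons. The excitatory neuron markers Slc17a7 and Slc17a6 together stood at 384 CPM in these precursors and 439 CPM in microglia, with the libraries summed. Astrocytes had 158 CPM of them and fibroblasts 199 CPM. The part of neuronal RNA in the alpha sums of glia was not tested. After thinning to 1000 counts, 7.003% of excitatory nuclei had an alpha count, beside 1.11% of astrocytes and 1.03% of fibroblasts.

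The gamma array was highest in meningeal fibroblasts, at 407, 344 and 314 CPM, beside 156, 141 and 141 CPM in excitatory and 152, 155 and 134 CPM in inhibitory nuclei. Astrocytes had 230, 226 and 180 CPM. The genes Pcdhga12, at 92.2, 77.9 and 58.6 CPM, and Pcdhga7, at 43.4, 25.4 and 28.1 CPM, were highest in fibroblasts in each library. The C-type gene Pcdhgc3 stood in astrocytes at 20.3, 12.8 and 25.7 CPM and in fibroblasts at 5.42, 18.6 and 16.4 CPM, against at most 2.52 CPM in any neuronal class with the libraries summed. Pcdhgc5 stood at 19.8, 17.1 and 21.6 CPM in excitatory and 10.8, 7.53 and 14.4 CPM in inhibitory nuclei. With the libraries summed, Pcdhgc5 was highest in oligodendrocyte precursors, at 26.96 CPM, and next in microglia, at 24.96 CPM.

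The beta array stood at 195, 156 and 172 CPM in excitatory nuclei and 241, 209 and 225 CPM in inhibitory nuclei. Olfactory bulb interneurons had 342, 262 and 271 CPM and oligodendrocytes 117, 103 and 79.8 CPM. In excitatory nuclei the median Nav1 KO over C57BL/6J ratio of beta genes was 0.812, and 17 of 21 lay below 1. The median was 0.910 for alpha genes, with 10 of 13 below 1, and 0.919 for gamma genes, with 15 of 20, while all genes had 0.933. Pcdhb14 was lower in Nav1 KO than in C57BL/6J in 9 of 9 classes with enough counts, in 4 of them past 1.5-fold. The whole interval lay below 1 in 2 of the 9, and 61.6% of all genes were below 1 in excitatory nuclei. Its level in excitatory nuclei was 28.5, 20.2 and 20.3 CPM. Pcdhb17 stood at 28.5, 26.8 and 30.3 CPM there. Pcdhb9 was highest in oligodendrocyte precursors, at 20.01, 37.4 and 39.2 CPM.

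**Figure D5:**
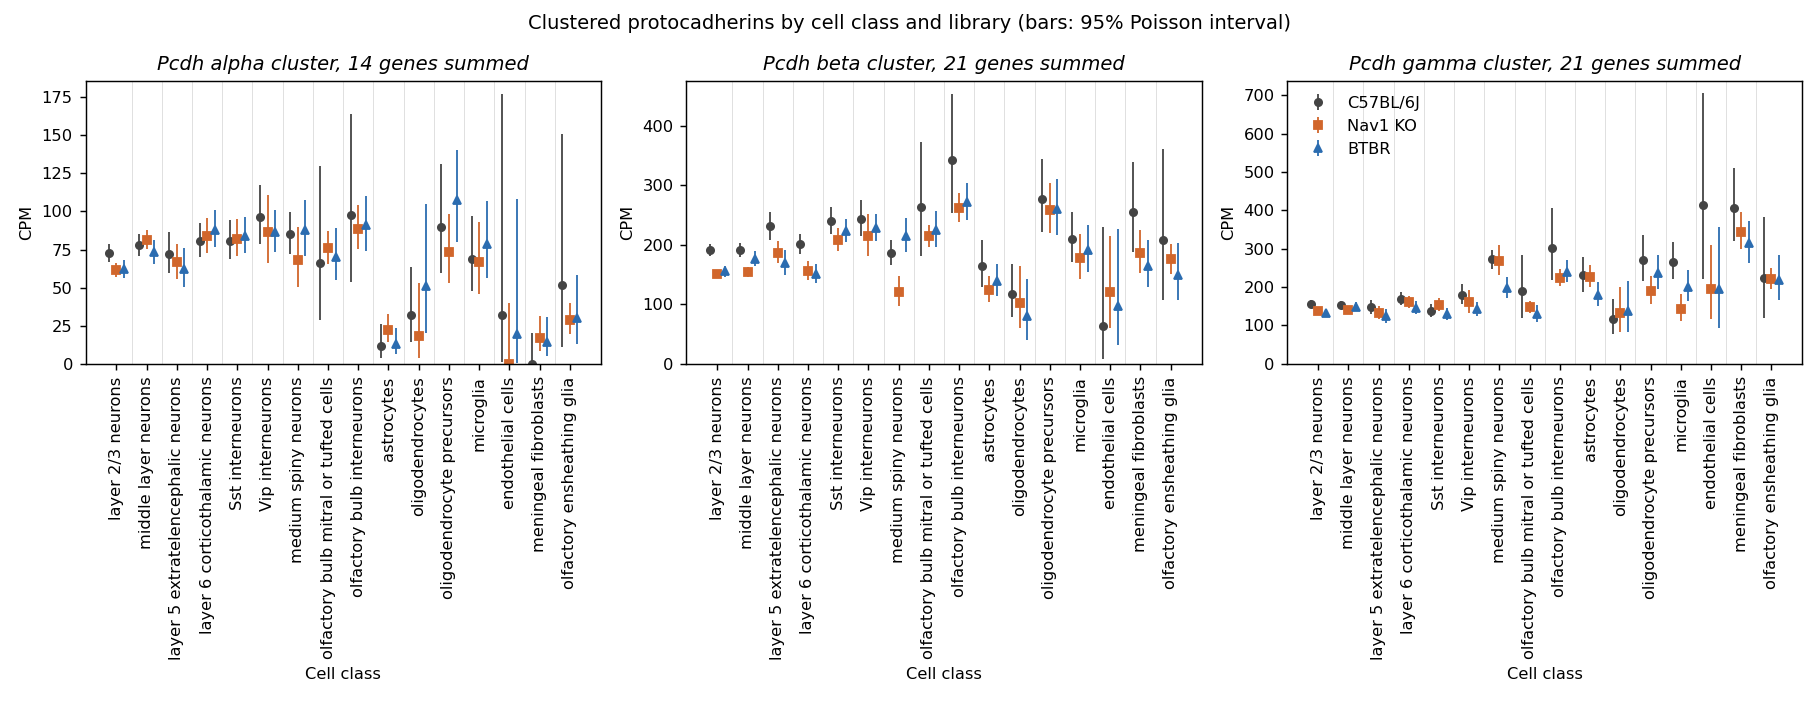
CPM of the 14 alpha, 21 beta and 21 gamma clustered protocadherins, summed by array, in each cell class and library, with exact 95% Poisson intervals. The alpha sum lies near the axis in astrocytes and fibroblasts, whereas the gamma sum is highest in fibroblasts (314 to 407 CPM). The pooled cortical excitatory and inhibitory nuclei are not drawn.

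Related genes were taken from lists of catenins, which tie cadherins to actin, of protocadherin partners and regulators, and of relatives in the wider superfamily. The protocadherin list held kinases and actin regulators. It also held Ctcf, Smchd1, Dnmt3b, Rad21 and Wapl, which are chromatin regulators and not binding partners. In excitatory nuclei, where 11.5% of all genes passed 1.5-fold in Nav1 KO and 17.6% in BTBR, of 12 catenins and linked proteins, none passed in Nav1 KO and 1 in BTBR, Ctnna3 at 0.64 on 44 and 30 counts. Of the 15 genes of the protocadherin list, Cyfip1 of the WAVE complex alone passed, at 95.1, 60.1 and 62.7 CPM, ratios of 0.63 in Nav1 KO and 0.66 in BTBR. Of 14 measured members of the wider superfamily, 2 passed in Nav1 KO, Cdhr1 higher and Dsc2 lower, and 3 in BTBR, Cdhr1 and Dsc2 higher and Cdhr3 lower. Cdhr1, a photoreceptor and mitral cell cadherin, stood at 1.54, 5.84 and 22.96 CPM in excitatory nuclei and at 384 CPM in mitral or tufted cells with the libraries summed. The other 7 mitral or tufted cell markers, none of them at 0 in any library, summed to 37.3, 48.3 and 56.1 CPM in excitatory nuclei, and the part of mitral cell RNA in the Cdhr1 values was not tested. In inhibitory nuclei, Pard3 passed lower in both comparisons, at 0.61 and 0.47, Jup higher in BTBR at 1.85, Wasf3 and Rad21 lower in Nav1 KO at 0.66 and 0.58, and Cyfip1 lower in BTBR at 0.59.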

How the data were processed

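Nuclei of 3 libraries, 1 per genotype, were analysed. The authors deposited filtered matrices of whole-number counts of molecules per gene and nucleus, made with Cell Ranger 6.0.0 on mm10 per the submitters' processing notes. Whether introns were counted is not given in the sources used here. The mm10 assembly derives from C57BL/6J and served all libraries. The effect of sequence differences of BTBR on counts was not tested.

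A nucleus was kept if it had 200 genes or more and less than 10% of its counts from mitochondrial genes, with no correction for free RNA. The design text gives 15238 cells for BTBR, which is the number of barcodes deposited; the filter left 14778. Log-normalised counts of 2000 variable genes were reduced to 30 principal components and clustered by the Leiden method (20 neighbours, resolution 1, splits at 0.5, seed 0) in scanpy 1.11.5, with Python 3.11.15, numpy 2.4.6, scipy 1.17.1, pandas 2.3.3, scikit-learn 1.9.0, igraph 0.11.9, leidenalg 0.10.2 and matplotlib 3.10.9. Cadherins and protocadherins were barred from the variable genes. Clusters were named from marker lists (at least 3 markers detected, 1.5-fold for neurons and 3-fold for other cells), with name thresholds and splits set after the clusters were seen. In all, 20 clusters stayed unnamed, with 4953, 3456 and 5874 nuclei. The Scrublet doublet caller marked 1, 1 and 0 nuclei and so had not worked. No nuclei were removed as doublets, and an alternative left out the 10% with the highest scores.

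Counts were summed per class and library and divided by the class total to give CPM. Ratios needed 50 counts in the pair, and a gene past 1.5-fold was counted as called. Ratios and their intervals were run on simulated Poisson counts with known changes, the kind of counting error that the intervals assume. The simulation held no spread between mice, nuclei or libraries, so it does not bear on differences between genotypes. Members and lists were chosen with earlier results of these data known. Named genes were the 10 with the most counts, the 2 with the highest fold in each class, the 3 highest and lowest ratios and any past 2-fold in each comparison, the 3 with the most counts of each array, and Cdh1, Cdh2, Cdh5, Cdh13, Pcdh19 and Pcdh11x as well known. Others were named after their values were seen. Gene positions are from GENCODE vM21 (GRCm38). Alternatives were separate clustering, other resolution, filters, weights, count minimums, fold thresholds and thinning depths.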

Additional observations from a re-analysis of the deposited data

Results flagged for a closer look

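Cdh24 differed in opposite directions in the pooled excitatory and the pooled inhibitory nuclei of the cortex. In excitatory nuclei its level was 12.2 CPM (C57BL/6J) and 7.89 CPM (BTBR), a ratio of 0.649 (0.532 to 0.791), and in inhibitory nuclei at 10.2 and 15.3 CPM, a ratio of 1.51 (0.962 to 2.41). Both ratios passed 1.5-fold, the second with an interval that includes 1. The inhibitory nuclei pooled the Sst and Vip classes, with 646 and 393 nuclei in C57BL/6J and 674 and 538 in BTBR. Of 5 single classes with enough counts, Vip interneurons alone had a ratio above 1, at 1.69. A reversal across inhibitory neurons in general is therefore not shown. The difference between the ratios was not tested, since there was 1 library per genotype.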

How the results depend on the processing

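No paired analysis was possible because each genotype had 1 library, and for the same reason no replicate could be left out. Counts of members past 1.5-fold moved mainly with the count minimum, the fold threshold and the weighting of nuclei. In Nav1 KO against C57BL/6J, the 5 members in excitatory nuclei became 10 with a mean over nuclei, 2 with a minimum of 200 counts and 0 at 2-fold. The 3 in inhibitory nuclei became 5 with under 5% mitochondrial counts, 1 without the 10% of nuclei with the highest doublet scores, 7 with a mean over nuclei, 5 with equal cluster weights, 9 with a minimum of 20 counts, 0 with 200 and 1 at 2-fold. In BTBR against C57BL/6J, the 14 in excitatory nuclei became 8 with a minimum of 200 counts and 2 at 2-fold, and the 6 in inhibitory nuclei became 12 with a mean over nuclei, 14 with a minimum of 20 counts, 2 with 200 and 0 at 2-fold. The Cdh2 ratio of oligodendrocytes moved from 0.0295 to 0.216 with separate clustering and 0.185 at the lower resolution. Of 259 recomputed single ratios and shares, 251 kept their side of the threshold or stayed within their intervals, 8 moved and 0 reversed. The 8 included Pcdh8 in BTBR excitatory nuclei, at 1.46 with equal cluster weights. Leaving out excitatory cluster 16, chosen after seeing the data, gave 7 members in Nav1 KO and 13 in BTBR. The causes were not tested. Classes under 100 nuclei in a library, endothelial cells and C57BL/6J bulb output neurons among them, give wide intervals.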
